A study of Mus musculus with 10 samples.

Results

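The scaffold and adhesion genes of the postsynapse are described here by 28 members, taken by gene symbol from a table of 27343 genes: Dlg1 to Dlg4, Dlgap1 to Dlgap4, Shank1 to Shank3, Homer1 to Homer3, Nlgn1 to Nlgn3, Lrrtm1 to Lrrtm4, Sipa1l1, Cnksr2, Baiap2, Iqsec1, Iqsec2, Kalrn and Gphn. All 28 were found, and all 28 passed the filter on low counts. They were measured in the hippocampus of wild-type male C57BL/6J mice, 2 months old. In the Visudyne group (5 libraries, numbered 1 to 5), verteporfin, a photosensitizer, was injected into the cisterna magna and activated by light at 689 nm sent through the unopened skull, a procedure that ablates meningeal lymphatic vessels. The vehicle group (5 libraries, numbered 6 to 10) received vehicle and the same light. The procedure was done again 2 weeks later. After a further 2 weeks the mice of both groups performed the Morris water maze, a test of spatial learning, and the whole hippocampus was taken 3 days after it. There was no group without injection and none without the maze. The labels list the libraries as separate samples, and p-values measure the spread between them.

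The postsynaptic density is a protein layer beneath the membrane of excitatory synapses. Its scaffolds are stacked: the Dlg proteins bind receptors and adhesion proteins with their PDZ domains, the Dlgap proteins link Dlg to Shank, and Homer proteins bind Shank and metabotropic glutamate receptors. Neuroligins and LRRTM proteins reach across the cleft to presynaptic neurexins and heparan sulfate proteoglycans, and gephyrin is the scaffold of inhibitory synapses. In the hippocampus these proteins hold the receptors whose number changes with synaptic plasticity.

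Levels are given as CPM, in which the estimated counts of a library are divided by its size, corrected with TMM (trimmed mean of M values) factors. Total counts lay between 34548474 and 36956138 in the Visudyne libraries and between 24752362 and 41073906 in the vehicle libraries. The 28 members together took 0.288% to 0.313% of a Visudyne library and 0.310% to 0.339% of a vehicle library. The mitochondrial ribosomal RNA mt-Rnr2 alone took 33.6% to 39.7% of a Visudyne library and 32.2% to 35.7% of a vehicle library. Without the mitochondrially encoded genes the members' shares were 0.523% to 0.571% in Visudyne and 0.541% to 0.583% in vehicle, and the groups overlapped. The fewest counts of a member in a library were 28, for Dlgap3, and the most were 24498, for Cnksr2. Markers of the hippocampus were present, with pyramidal neuron markers summing to 257.7 to 298 CPM with Visudyne against 268.4 to 369.6 CPM with vehicle and dentate granule cell markers to 247.4 to 404.7 CPM with Visudyne against 258.3 to 324.8 CPM with vehicle. Markers of the choroid plexus were high in Visudyne 3 and Visudyne 5, at 414.5 and 299.1 CPM, against 22.8 to 29.5 CPM in the other Visudyne libraries and 22.3 to 33.5 CPM in vehicle.

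Of the 28 members, 3 rose and 6 fell in the Visudyne hippocampus by edgeR's quasi-likelihood test, with p-values adjusted over all 15938 tested genes. The 3 that rose were Dlg2, Nlgn1 and Lrrtm2, at 1.19, 1.30 and 1.31 times the vehicle level. The 6 that fell were Iqsec1, Dlg4, Shank3, Iqsec2, Kalrn and Dlg3, at 0.647, 0.658, 0.672, 0.759, 0.795 and 0.894 of it. Over all tested genes 20.5% were called, 8.98% higher and 11.5% lower, and 32.1% of the members. The CPM of the groups did not overlap for 4 members, Dlg2, Dlg4, Shank3 and Kalrn, and for 12.5% of all tested genes. Of the 4, 1 was higher and 3 were lower, beside 5.25% higher and 7.22% lower among all tested genes. The median log2 fold change of the members was -0.08, against 0.01 for all tested genes. In whole hippocampus, fewer cells of a type and less RNA per cell cannot be told apart.

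The calls depended on single libraries and on how GC content was treated. Without Visudyne 3, and likewise without vehicle 6, 0 members were called by edgeR, while 13 members had an unadjusted p under 0.05 in each case (0.167% and 0.0622% of all tested genes were called in those fits). Kalrn alone was called without Visudyne 1 and without vehicle 9, where 6.94% and 1.92% of all tested genes were called. Members called were 3 higher and 2 lower without Visudyne 2 (beside 11.3% of all tested genes), 3 and 1 without Visudyne 4 (6.96%), 1 and 3 without vehicle 7 (9.67%) and 3 and 4 without vehicle 8 (13.6%). They were 6 higher and 6 lower without Visudyne 5 (31.5%) and 4 higher and 8 lower without vehicle 10 (22.6%). When the trend of every library with GC content was taken out (GC correction below), Kalrn was the only one of the 9 still called, and Lrrtm1 and Shank2 were called higher in addition (4.47% of all tested genes were called in that fit, 2.23% higher and 2.24% lower). With 1 library left out as well, the GC-corrected call was made in 1 of 10 fits for Kalrn, 2 of 10 for Lrrtm1 and 1 of 10 for Shank2. Dlgap1, Dlgap4 and Baiap2 were also called in 1 of 10 each. Of all tested genes, 0.0124% (without vehicle 6) to 11.5% (without Visudyne 5) were called in those fits. When libraries were scaled by their totals alone, which put the median of all tested genes at -0.19 on the log2 scale, 0 members were called higher and 12 lower, where 1.23% of all tested genes were called higher and 24.5% lower (25.7% in all). Those 12 were the 6 called lower with TMM, and Dlgap2, Dlgap3, Homer1, Sipa1l1, Baiap2 and Gphn. With the GC slope of every library as a covariate, here called the slope covariate, 0 members and 0 genes were called, with 1 member at an unadjusted p under 0.05. The slopes largely followed the groups, crossing only in Visudyne 5 and vehicle 10, so this fit could hardly tell group from slope. With 1 surrogate variable, 0 members and 1 gene (higher, 0.00627% of those tested) were called, with 4 members at an unadjusted p under 0.05.

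**Figure D1:**
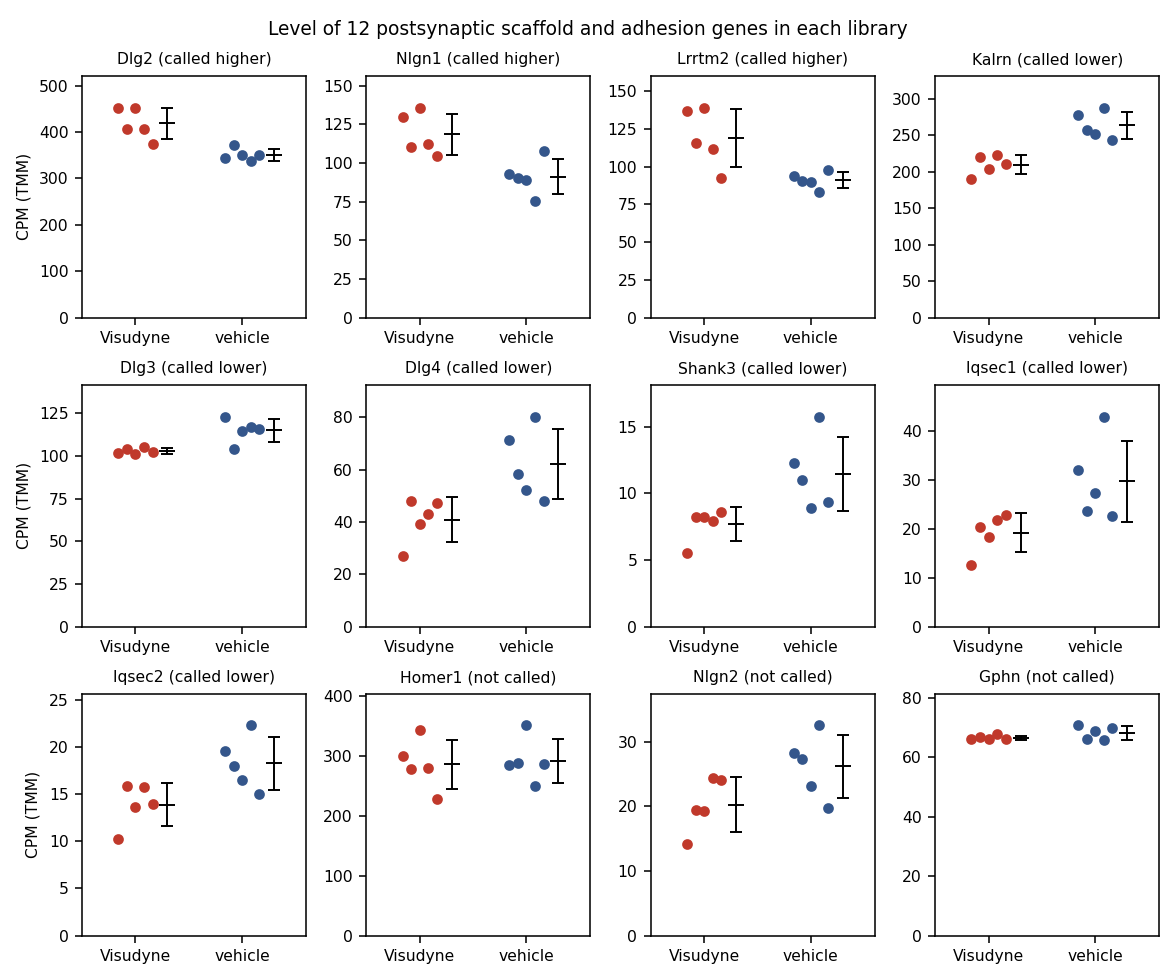
Level in CPM (vertical axis, from 0) of the 9 called members and of Homer1, Nlgn2 and Gphn, with 1 point per library, 5 Visudyne (left) and 5 vehicle (right), and the mean with its SD in black. Dlg2 lies above every vehicle library in all 5 Visudyne libraries, Kalrn, Dlg4 and Shank3 lie below, and the other panels overlap.

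Among the 4 Dlg scaffolds, which are membrane-associated guanylate kinases, 1 gene rose, 2 fell and 1 was not called. Dlg2 encodes a Dlg scaffold that anchors NMDA receptors and potassium channels. It stood at 452.5, 407.3, 450.6, 406.9 and 373.9 CPM in Visudyne 1 to 5, against 343.9, 371.1, 350.4, 336.9 and 350.9 CPM in vehicle 6 to 10. Every Visudyne library was above every vehicle library, although Visudyne 5 was close to vehicle 7. The means were 418.2 ± 33.3 CPM with Visudyne against 350.6 ± 12.8 CPM with vehicle (SD, n = 5 each; edgeR log2 fold change 0.25 with SE 0.0633 and adjusted p = 0.028), and the log2 fold change was 0.0609 after GC correction. Dlg2 was not called when Visudyne 1, Visudyne 3, vehicle 6 or vehicle 9 was left out.

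Dlg4 encodes the most studied scaffold of the postsynaptic density, which holds AMPA receptors through their auxiliary subunits. It stood at 26.9, 48.2, 39.1, 43.2 and 47.3 CPM in Visudyne 1 to 5, against 71.5, 58.5, 52.2, 80.3 and 48.2 CPM in vehicle 6 to 10. All Visudyne libraries were below all vehicle libraries, although Visudyne 2 and vehicle 10 were nearly equal, and Visudyne 1 was the lowest. The means were 40.9 ± 8.64 CPM with Visudyne against 62.2 ± 13.5 CPM with vehicle (SD, n = 5 each; edgeR log2 fold change -0.60 with SE 0.17 and adjusted p = 0.033). The log2 fold change was -0.31 after GC correction and 0.0823 under the slope covariate, neither of them called. Dlg4 was not called when Visudyne 1, Visudyne 3, Visudyne 4, vehicle 6, vehicle 7 or vehicle 9 was left out.

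Dlg3, a Dlg scaffold with a large part in immature synapses, stood at 101.4, 103.7, 101.3, 105.2 and 102 CPM in Visudyne 1 to 5, against 123, 104.2, 114.3, 116.8 and 115.9 CPM in vehicle 6 to 10. The Visudyne libraries were close together, and of the vehicle libraries only vehicle 7 fell among them. The difference was -0.16 on the log2 scale (SE 0.0531) at an edgeR adjusted p = 0.0499, the weakest of the 9 calls. Dlg3 was called only without Visudyne 5 or without vehicle 7 among the fits that left out 1 library. Dlg1, which traffics AMPA receptors, averaged 130.7 ± 8.36 CPM with Visudyne against 128.7 ± 12.2 CPM with vehicle (n = 5 each) and was not called (edgeR log2 fold change 0.0227 with SE 0.0733 and adjusted p = 0.839).

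Dlg2 and Dlg4 are paralogs, and the coding ends of their transcripts differ in base composition. The last 120 coding bases, stop codon included, are shown for the paralog pairs Dlg2 and Dlg4, Nlgn1 and Nlgn2, and Shank2 and Shank3. In each pair the log2 fold change of the GC-poorer gene was above 0 and that of the GC-richer gene below 0. Other paralogs met this too and are not shown, among them Dlgap1 with Dlgap3 and Homer2 with Homer3. These are coding exon sequences of the transcript with the longest coding region in GENCODE M21 (GRCm38), read 5′ to 3′ on the gene's own strand, with G and C in capitals. The genes lie at chr7:90476672-92449247, plus strand (Dlg2), chr11:70016942-70047522, plus strand (Dlg4), chr3:25426215-26332460, minus strand (Nlgn1), chr11:69823122-69837784, minus strand (Nlgn2), chr7:144001928-144424494, plus strand (Shank2) and chr15:89499623-89560261, plus strand (Shank3).
Dlg4: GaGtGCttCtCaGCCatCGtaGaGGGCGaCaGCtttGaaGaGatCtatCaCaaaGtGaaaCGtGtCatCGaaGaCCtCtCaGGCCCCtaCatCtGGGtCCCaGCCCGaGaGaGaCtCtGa
Dlg2: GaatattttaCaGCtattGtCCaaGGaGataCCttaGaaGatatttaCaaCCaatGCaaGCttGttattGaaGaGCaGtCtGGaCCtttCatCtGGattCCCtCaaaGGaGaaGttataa
Nlgn2: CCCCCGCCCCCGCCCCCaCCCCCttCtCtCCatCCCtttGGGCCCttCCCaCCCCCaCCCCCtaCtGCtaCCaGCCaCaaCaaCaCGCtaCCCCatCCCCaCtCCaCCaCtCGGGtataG
Nlgn1: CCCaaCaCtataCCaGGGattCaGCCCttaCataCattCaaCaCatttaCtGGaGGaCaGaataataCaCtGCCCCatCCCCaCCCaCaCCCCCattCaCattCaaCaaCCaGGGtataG
Shank3: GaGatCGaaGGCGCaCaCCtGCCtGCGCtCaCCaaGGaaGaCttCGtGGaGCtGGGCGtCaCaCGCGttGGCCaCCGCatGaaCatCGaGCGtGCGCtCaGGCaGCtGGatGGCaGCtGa
Shank2: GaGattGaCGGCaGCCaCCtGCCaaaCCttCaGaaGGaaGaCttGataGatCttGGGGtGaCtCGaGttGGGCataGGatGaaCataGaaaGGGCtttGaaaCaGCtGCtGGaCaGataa

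G and C made up 64 of the 120 bases in Dlg4 and 44 in Dlg2. Set base against base from the stop codon without gaps, the pair had the same base at 74 positions. At 28 of the 46 that differed Dlg4 had G or C where Dlg2 had A or T, and at 8 the reverse, and 28 of the 46 stood at the last position of a codon. In the neuroligin pair G and C made up 81 bases in Nlgn2 and 57 in Nlgn1, with the same base at only 56 positions. In the Shank pair, whose ends code for the SAM domain by which Shank proteins assemble, the numbers were 76 in Shank3 and 58 in Shank2. This pair had the same base at 79 positions, and 26 of the 41 that differed stood at the last position of a codon. Over the whole coding region GC content was 64.6% in Shank3 and 58.8% in Shank2. It was 56.7% in Dlg4 and 46.3% in Dlg2, and 62.7% in Nlgn2 and 45.9% in Nlgn1. In each pair the gap was narrower there than in the last 120 bases.

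Because library size cancels in a ratio of 2 genes of the same library, the paralogs were also set against each other directly, in pairs chosen after their values were seen. The trend of a library with GC content does not cancel, because every ratio set the GC-richer gene over the GC-poorer one. The ratios of Dlg4 to Dlg2, Shank3 to Shank2 and Nlgn2 to Nlgn1 were lowest in Visudyne 1 and highest in vehicle 9. Those libraries had the lowest and the highest GC slope. The ratio of Dlg4 to Dlg2 counts was 0.0594, 0.118, 0.0868, 0.106 and 0.126 in Visudyne 1 to 5, against 0.208, 0.158, 0.149, 0.239 and 0.137 in vehicle 6 to 10. Every Visudyne library was below every vehicle library, with means of 0.0994 ± 0.0269 in Visudyne and 0.178 ± 0.0432 in vehicle (SD, n = 5 each). For this pair the outcome was fixed beforehand, because the CPM of each gene already separated the groups, in opposite directions. The ratio of Shank3 to Shank2 counts was 0.123, 0.201, 0.171, 0.189 and 0.227 in Visudyne 1 to 5, against 0.296, 0.268, 0.251, 0.330 and 0.264 in vehicle 6 to 10, again without overlap. The CPM of Shank3 alone already separated the groups. The ratio of Nlgn2 to Nlgn1 counts was 0.110, 0.176, 0.142, 0.217 and 0.230 in Visudyne 1 to 5, against 0.306, 0.302, 0.261, 0.430 and 0.183 in vehicle 6 to 10, and here Visudyne 4 and 5 lay above vehicle 10. The ratio of Lrrtm1 to Lrrtm2 ran from 0.220 to 0.312 in Visudyne and from 0.267 to 0.325 in vehicle and overlapped. The ratios of Homer3 to Homer1 and of Dlgap3 to Dlgap1 overlapped too. How often the ratio of any other gene pair separates the groups was not computed, so the pairs without overlap have no background. No test was made of these ratios.

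None of the 4 Dlgap genes, which code for the linkers between Dlg and Shank, was called. Dlgap3 had the largest fold of any member, but the smallest counts. It stood at 0.879, 1.85, 1.05, 1.71 and 2.43 CPM in Visudyne 1 to 5, against 3.17, 3.02, 1.65, 5.72 and 1.93 CPM in vehicle 6 to 10. The SD was 0.627 CPM in Visudyne and 1.61 CPM in vehicle, vehicle 9 was the highest library, and the call was missed (edgeR log2 fold change -0.97 with SE 0.35 and adjusted p = 0.0657), although it was made without Visudyne 5, vehicle 8 or vehicle 10. Dlgap1, the highest of the family per exon length, averaged 390.9 ± 36.8 CPM with Visudyne against 342.8 ± 14.2 CPM with vehicle (edgeR log2 fold change 0.19 with SE 0.0699 and adjusted p = 0.0679). Visudyne 5, at 334.1 CPM, lay inside the vehicle range, and Dlgap1 was called without that library (log2 fold change 0.23, adjusted p = 0.014 by edgeR). Dlgap2 and Dlgap4 had log2 fold changes of -0.19 and -0.17, which were 0.16 and 0.28 after GC correction, and Dlgap2 was called without vehicle 10.

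Of the 3 Shank genes, the large scaffolds below the Dlgap layer, Shank3 fell and the other two were not called. Shank3 stood at 5.53, 8.21, 8.24, 7.95 and 8.61 CPM in Visudyne 1 to 5, against 12.3, 11.01, 8.90, 15.8 and 9.33 CPM in vehicle 6 to 10. All 5 Visudyne libraries were below all 5 vehicle libraries, Visudyne 1 being the lowest and vehicle 9 the highest. The means were 7.71 ± 1.24 CPM with Visudyne against 11.5 ± 2.77 CPM with vehicle (SD, n = 5 each; edgeR log2 fold change -0.57 with SE 0.16 and adjusted p = 0.035), and the log2 fold change was -0.0163 after GC correction. Shank3 was called only without Visudyne 5, vehicle 8 or vehicle 10 among the fits that left out 1 library. Shank1 averaged 12.8 ± 2.09 CPM with Visudyne against 15.98 ± 4.30 CPM with vehicle and was likewise lowest in Visudyne 1 and highest in vehicle 9, with 23.3 CPM in vehicle 9 against 15.5 CPM or less in the other vehicle libraries (edgeR log2 fold change -0.33 with SE 0.17 and adjusted p = 0.164). Shank2 averaged 42.8 ± 3.91 CPM with Visudyne against 40.3 ± 5.13 CPM with vehicle and was not called (log2 fold change 0.0870). After GC correction Shank2 was called higher, at 0.47 on the log2 scale (SE 0.12; edgeR adjusted p = 0.0486), but with 1 library left out this call was made only without Visudyne 5. With total counts in place of TMM Shank2 was at -0.13.

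None of the 3 Homer genes was called. Homer proteins tie Shank to metabotropic glutamate receptors and to calcium stores, and Homer1 also gives a short transcript induced by neuronal activity, which values per gene cannot separate from the long ones. Homer1 stood at 300, 277.3, 342.3, 279.2 and 227.5 CPM in Visudyne 1 to 5, against 284.6, 286.9, 350.3, 249.5 and 286 CPM in vehicle 6 to 10. The groups overlapped over most of their range, with Visudyne 5 the lowest and vehicle 8 the highest. The means were 285.3 ± 41.6 CPM with Visudyne against 291.5 ± 36.5 CPM with vehicle (SD, n = 5 each; edgeR log2 fold change -0.0311 with SE 0.11 and adjusted p = 0.852), and the log2 fold change was -0.27 after GC correction, not called. Homer2 averaged 100.4 ± 14.4 CPM with Visudyne against 90.99 ± 5.90 CPM with vehicle (log2 fold change 0.14, SE 0.0922). Homer3, at 44 to 248 counts per library, averaged 2.38 ± 0.849 CPM with Visudyne against 3.62 ± 1.28 CPM with vehicle (log2 fold change -0.61, SE 0.28), with coefficients of variation of 35.7% with Visudyne and 35.3% with vehicle.

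Of the neuroligins, the postsynaptic partners of neurexins, Nlgn1 rose and Nlgn2 and Nlgn3 were not called. Nlgn1, found mainly at excitatory synapses, stood at 129.4, 110.2, 135.8, 112.4 and 104.8 CPM in Visudyne 1 to 5, against 92.7, 90.3, 88.99, 75.7 and 107.8 CPM in vehicle 6 to 10. Vehicle 10 was inside the Visudyne range and the other 4 vehicle libraries were below it. The means were 118.5 ± 13.3 CPM with Visudyne against 91.1 ± 11.5 CPM with vehicle (SD, n = 5 each; edgeR log2 fold change 0.38 with SE 0.0971 and adjusted p = 0.029), and the log2 fold change was 0.13 after GC correction. Its exons overlap 1229 bases of an antisense gene, and whether the counting used strand is not known. Nlgn1 was not called when Visudyne 1, Visudyne 3, vehicle 6, vehicle 7 or vehicle 9 was left out.

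Nlgn2, found mainly at inhibitory synapses, where it binds gephyrin, stood at 14.2, 19.4, 19.4, 24.4 and 24.1 CPM in Visudyne 1 to 5, against 28.3, 27.3, 23.2, 32.5 and 19.8 CPM in vehicle 6 to 10. Visudyne 1 was the lowest library and vehicle 9 the highest, and the groups overlapped from vehicle 10 up to Visudyne 4. The difference missed the call (edgeR log2 fold change -0.37 with SE 0.16 and adjusted p = 0.0977), was called without vehicle 10, and had the other sign after GC correction, at 0.11. Nlgn3, present at both kinds of synapse, was among the most even members, at 122.9 ± 5.33 CPM with Visudyne against 118.8 ± 3.08 CPM with vehicle (edgeR log2 fold change 0.0482 with SE 0.0498 and adjusted p = 0.491). Its exons share 3823 bases with the annotated gene Gm21986 on the same strand, so its counts may hold reads of both.

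Of the 4 LRRTM genes, Lrrtm2 rose and the others were not called. Lrrtm2, which codes for a neurexin receptor that stabilises AMPA receptors, stood at 136.6, 115.8, 139, 111.5 and 92.7 CPM in Visudyne 1 to 5, against 93.9, 90.5, 90.1, 83.3 and 97.7 CPM in vehicle 6 to 10. Visudyne 5 lay between vehicle 7 and vehicle 6, and the other 4 Visudyne libraries were above every vehicle library. The means were 119.1 ± 19.2 CPM with Visudyne against 91.1 ± 5.33 CPM with vehicle (SD, n = 5 each; edgeR log2 fold change 0.39 with SE 0.10 and adjusted p = 0.029), and the log2 fold change was 0.0916 after GC correction. Lrrtm2 lost its call with the same 5 libraries left out in turn as Nlgn1. Lrrtm1, another neurexin receptor, was at 30.1 ± 0.852 CPM with Visudyne against 27.7 ± 2.41 CPM with vehicle (edgeR log2 fold change 0.12 with SE 0.0652 and adjusted p = 0.189). It was above the vehicle mean in 5 of 5 Visudyne libraries, and after GC correction it was called higher, at 0.48 (SE 0.11, adjusted p = 0.0409 by edgeR). With 1 library left out, that call was made only without Visudyne 5 or vehicle 10. With total counts in place of TMM its sign was reversed, at -0.09. Lrrtm3 and Lrrtm4, which bind heparan sulfate proteoglycans, had log2 fold changes of 0.0394 (SE 0.12) and 0.17 (SE 0.0982), and Lrrtm4 was called, at 0.24, without Visudyne 5.

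Among the 6 scaffolds that carry signalling enzymes or recruit them, Kalrn, Iqsec1 and Iqsec2 fell. Kalrn codes for kalirin, a guanine nucleotide exchange factor that activates Rac and shapes dendritic spines. It stood at 190.6, 219.9, 203.9, 223 and 210.5 CPM in Visudyne 1 to 5, against 277.3, 257.8, 251.6, 288 and 243.7 CPM in vehicle 6 to 10. All 5 Visudyne libraries were below all 5 vehicle libraries, the nearest being Visudyne 4 and vehicle 10. The means were 209.6 ± 13.1 CPM with Visudyne against 263.7 ± 18.4 CPM with vehicle (SD, n = 5 each; edgeR log2 fold change -0.33 with SE 0.0651 and adjusted p = 0.023). Kalrn had the smallest p of the members, remained called in 8 of the 10 fits that left out 1 library, all but those without Visudyne 3 or vehicle 6, and was still called after GC correction (-0.16 on the log2 scale, SE 0.0417, edgeR adjusted p = 0.0486). The GC-corrected call was made in only 1 of the 10 fits that left out 1 library, that without Visudyne 5, and the log2 fold change ran there from -0.18 to -0.14. It was -0.15 (SE 0.0647) under the slope covariate, not called.

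Iqsec1 and Iqsec2 code for exchange factors of the small GTPase Arf6, which governs the uptake of AMPA receptors. Iqsec1 stood at 12.7, 20.5, 18.4, 21.9 and 22.9 CPM in Visudyne 1 to 5, against 32.1, 23.6, 27.5, 43.02 and 22.7 CPM in vehicle 6 to 10. Visudyne 5 lay just above vehicle 10, and vehicle 9 was far above the other libraries. The means were 19.3 ± 4.07 CPM with Visudyne against 29.8 ± 8.28 CPM with vehicle (SD, n = 5 each; edgeR log2 fold change -0.63 with SE 0.19 and adjusted p = 0.039), and the log2 fold change was -0.30 after GC correction and 0.13 under the slope covariate. Iqsec2 stood at 10.2, 15.9, 13.6, 15.7 and 13.98 CPM in Visudyne 1 to 5, against 19.6, 17.9, 16.5, 22.3 and 15.04 CPM in vehicle 6 to 10. The groups overlapped at vehicle 10, and Visudyne 1 was the lowest library. Its log2 fold change of -0.40 (SE 0.13, edgeR adjusted p = 0.0484) was 0.0629 after GC correction. With 1 library left out, Iqsec1 was called only without Visudyne 5, vehicle 7 or vehicle 10, and Iqsec2 only without vehicle 10.

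Cnksr2, a scaffold of Ras signalling that binds Dlg proteins, was the highest member per exon length and narrowly missed the call, at 664.3 ± 84.5 CPM with Visudyne against 550.7 ± 40.3 CPM with vehicle (edgeR log2 fold change 0.27 with SE 0.0900 and adjusted p = 0.0509). The Visudyne libraries 1 to 4 lay between 657.4 and 769.2 CPM, above every vehicle library, while Visudyne 5, at 534.5 CPM, lay among them. Cnksr2 was called without Visudyne 5 or vehicle 10. Sipa1l1, which inactivates the GTPase Rap in spines, had a log2 fold change of -0.12 (SE 0.0681). Baiap2, which bends membranes and binds actin regulators, had one of -0.13 (SE 0.0770). Neither was called.

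Gphn, the scaffold of glycine and GABA-A receptors at inhibitory synapses, did not pass the test and was the least variable member across the Visudyne libraries. It stood at 66.2, 66.7, 66.1, 67.7 and 66.2 CPM in Visudyne 1 to 5, against 70.7, 66.04, 68.7, 65.8 and 69.98 CPM in vehicle 6 to 10. The coefficient of variation was 1.01% in Visudyne and 3.30% in vehicle, where the median over the 28 members was 12.45% in Visudyne and 9.665% in vehicle. On the log2 scale its difference was -0.0356 (SE 0.0458, edgeR adjusted p = 0.585, n = 5 each).

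**Figure D2:**
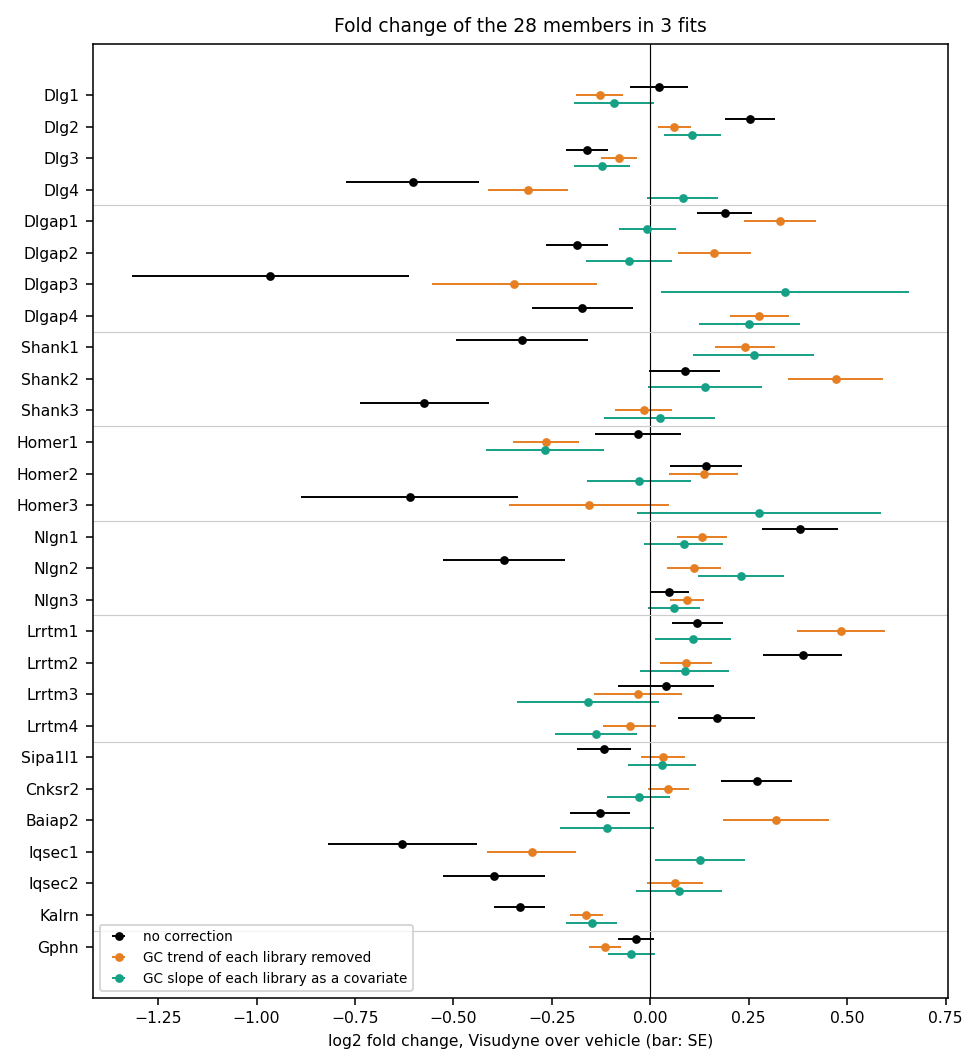
Log2 fold change of Visudyne over vehicle (horizontal axis) with its SE for the 28 members, grouped by family, from the fit without correction, with the GC trend of each library removed, and with the GC slope of each library as a covariate. Dlg4 is at -0.60 without correction and at -0.31 and 0.0823 in the other fits. Of the called members, Kalrn and Dlg3 stay below 0 and Dlg2, Nlgn1 and Lrrtm2 above 0 in all 3 fits.

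The members differed widely in the GC content of their transcripts, from 39.7% in Lrrtm2 to 64.5% in Dlgap3, around a median of 52.1% (49% for all tested genes). Of the 11 members under 50% GC, 3 were called higher and 0 lower, with a median log2 fold change of 0.14. Of the 17 members at 50% or more, 0 were called higher and 6 lower, with a median of -0.33. The same split of all tested genes gave medians of 0.15 over 8755 genes under 50% and -0.26 over 7074 genes at 50% or more, where 15.1% were called higher in the GC-poor class and 23.3% lower in the GC-rich class. The members differed between the classes in the direction in which all tested genes differed. Across the 28 members the correlation of log2 fold change with GC content was r = -0.79, and across 15829 tested genes it was -0.60. These are descriptions across genes of the same 10 libraries, and genes are not independent replicates. After GC correction, which takes out this relation over all tested genes by construction, r was 0.12 over the members. The medians were then 0.05 under 50% and 0.06 at 50% or more. Under the slope covariate, whose values largely followed the groups, the relation had the other sign, with r = 0.59 over the members. The medians in that fit were -0.03 under 50% and 0.08 at 50% or more.

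**Figure D3:**
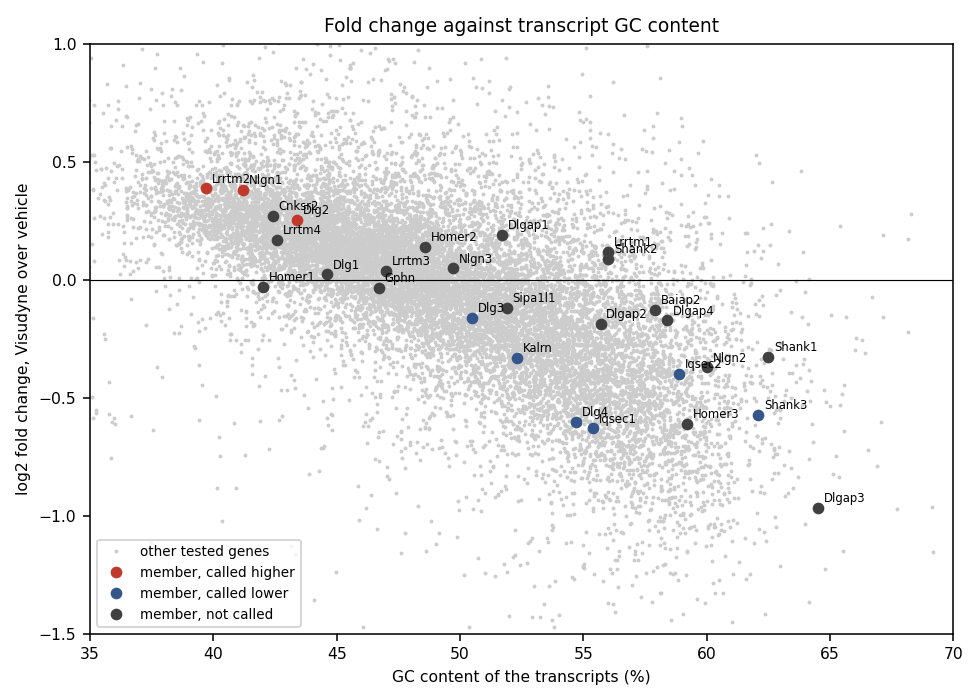
Log2 fold change of Visudyne over vehicle (vertical axis) against the GC content of a gene's transcripts in percent (horizontal axis), for the 28 members (coloured, named) and the other tested genes (grey); genes beyond the plotted range are not drawn. The members called higher lie under 44% GC and those called lower above 50%, along the slope of the grey points.

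The correlation was smaller in size for promoters than for transcripts. Among the 23 members with a RefSeq promoter (250 bases before to 50 after the start, GRCm38.p6), promoter GC content ran from 40.7% to 81% and its correlation with log2 fold change was -0.24, where transcript GC content gave -0.80 over the same 23 genes. For the coding region alone the correlation was -0.74 over 28 members, and for the last positions of codons -0.53. Correlation with the logarithm of exon length was 0.16.

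The pattern was also looked at library by library, and the members did not follow it in all of them. The GC slope of a library, the change of log2 CPM relative to the mean of the 10 libraries per 10 percentage points of GC content over all tested genes, was -0.54, -0.12, -0.22, -0.13 and 0.00794 in Visudyne 1 to 5, against 0.30, 0.16, 0.16, 0.41 and -0.0203 in vehicle 6 to 10. Visudyne 5 and vehicle 10 had slopes near 0 and the order of those 2 libraries was the reverse of that of their groups. Over the 28 members alone, the same relative log2 CPM correlated with GC content at -0.81, -0.33, -0.72, -0.59 and 0.49 in Visudyne 1 to 5. In vehicle 6 to 10 this correlation was 0.70, 0.75, -0.16, 0.84 and -0.25. In vehicle 8 its sign was opposite to that of the slope. Visudyne 1, with the lowest slope, had the lowest level of all 10 libraries for Dlg4, Dlgap3, Dlgap4, Shank1, Shank3, Homer3, Nlgn2, Iqsec1, Iqsec2 and Kalrn, and shared the lowest with Visudyne 5 for Dlgap2. It had the highest for Dlg1, Dlg2, Dlgap1, Lrrtm4 and Cnksr2. Vehicle 9, with the highest slope, had the highest level of Sipa1l1 and of each gene lowest in Visudyne 1 alone except Homer3. It had the lowest level of Dlg2, Dlgap1, Nlgn1, Lrrtm2, Cnksr2 and Gphn. Without both Visudyne 1 and vehicle 9, a setting added after the data were seen, 0 members were called, and 100 genes in all.

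**Figure D4:**
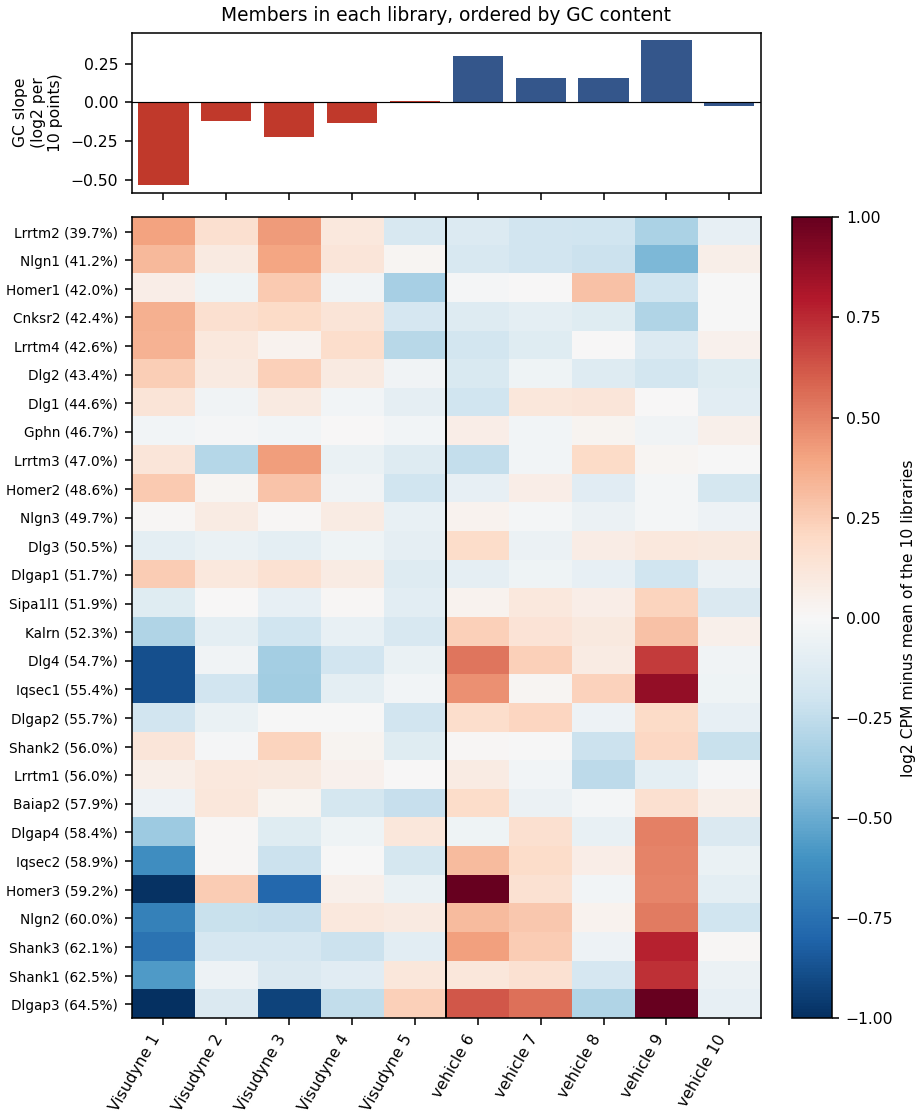
Log2 CPM of the 28 members in each library minus the mean of the 10 libraries (colour, saturating at 1), with members ordered from the lowest GC content (top) to the highest (bottom), Visudyne left and vehicle right of the line; bars above give the GC slope of each library. GC-rich members are low in Visudyne 1, whose slope is -0.54, and high in vehicle 9, whose slope is 0.41.

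Per kilobase of exon length, the members spanned a wide range of levels. Cnksr2 stood highest, at 71.7 ± 9.11 CPM per kb in Visudyne and 59.4 ± 4.35 CPM per kb in vehicle (SD, n = 5 each). Homer1, Dlg2, Dlg3, Dlgap1 and Gphn followed, at 24.3, 21.5, 19.7, 19.2 and 18.2 CPM per kb in vehicle. In that order Homer1 and Dlg2, and Dlg3 and Dlgap1, were within 1 SD of each other. The lowest were Shank3, Homer3 and Dlgap3, at 0.839, 0.691 and 0.350 CPM per kb in Visudyne and 1.25, 1.05 and 0.686 CPM per kb in vehicle. Within the Dlg family Dlg4 was the lowest, at 3.09 CPM per kb in Visudyne and 4.69 CPM per kb in vehicle. Across the 28 members the log of the vehicle level per kb had a correlation of -0.80 with GC content, so that low level and high GC content came together. The exon length is that of all annotated exons of a gene, which is longer than a single transcript.

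**Figure D5:**
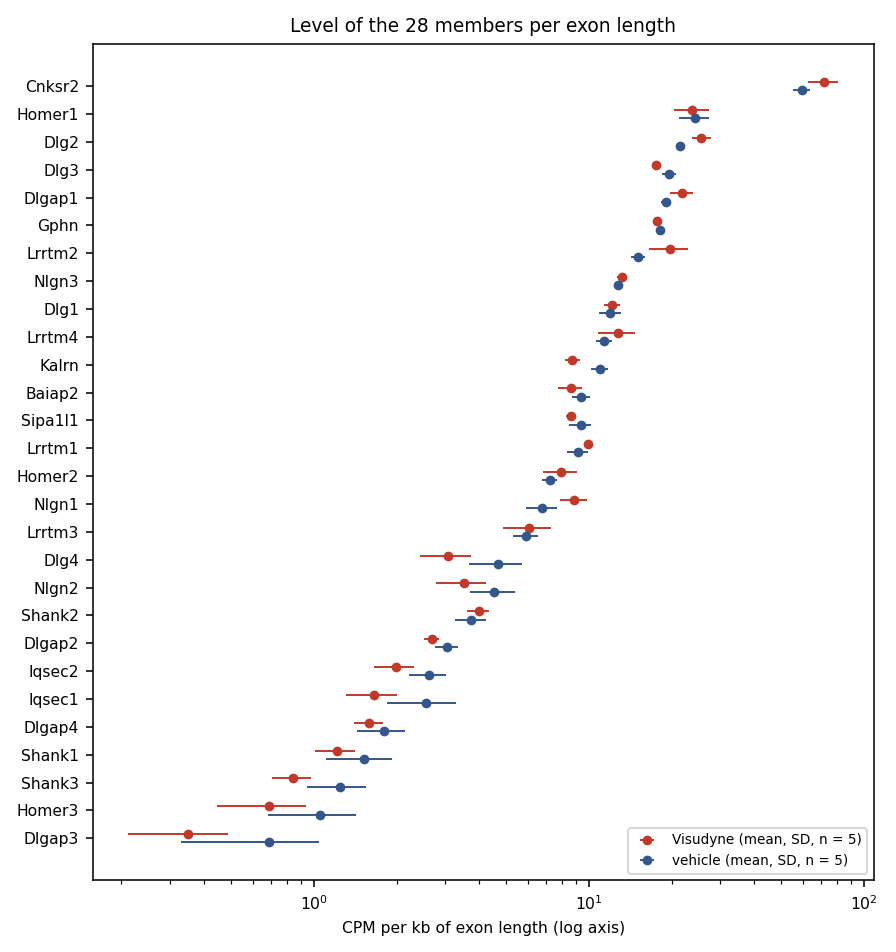
Level per kilobase of exon length (horizontal log axis, CPM per kb, mean with SD, n = 5 each) of the 28 members in Visudyne (upper point) and vehicle (lower point), ordered by the vehicle level. Cnksr2 is the highest in both groups and Dlgap3 the lowest.

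Other genes of the postsynapse and its partners were taken from 3 lists. Of 31 further tested genes for proteins of the postsynaptic density, 0 rose and 7 fell, where 8.98% of all tested genes rose and 11.5% fell. The median log2 fold change of the 31 was -0.06. The 4 with the smallest p were Sipa1l2, a relative of Sipa1l1 (-0.54), Lzts3, a Shank-binding protein (-0.33), Cttn, which codes for the actin-binding cortactin (-0.39), and Camk2b, a subunit of calmodulin kinase II (-0.48). Sipa1l2 averaged 10.6 ± 1.56 CPM with Visudyne against 15.3 ± 1.56 CPM with vehicle (SD, n = 5 each). After GC correction, 1 of the 31 rose and 0 fell (2.23% and 2.24% of all tested genes). It was Srcin1, at 0.49, which without the correction was at -0.08 and not called.

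Of 35 tested trans-synaptic adhesion genes and their ligands, 12 rose and 2 fell (8.98% and 11.5% of all tested genes), with a median log2 fold change of 0.16. Their median GC content was 48.9%. The smallest p belonged to Cadm1, a synaptic cell adhesion molecule, at 266.1 ± 19.98 CPM with Visudyne against 202.3 ± 14.7 CPM with vehicle (SD, n = 5 each; 0.40 on the log2 scale, SE 0.0697, edgeR adjusted p = 0.020), and it was still called after GC correction, at 0.33. Slitrk4 and Slitrk2, which code for adhesion proteins that induce presynaptic terminals, had log2 fold changes of 0.52 and 0.47, and Cdh2, the N-cadherin gene, one of 0.28. After GC correction, 5 of the 35 rose and 0 fell (2.23% and 2.24% of all tested genes), at a median of 0.11. Among the 5 was Nrxn2, at 0.33, which without the correction was at -0.21 and not called. Of 10 tested partners of the inhibitory scaffold, 2 rose, Mdga2 (0.40), whose protein blocks neuroligins, and Dmd (0.28), the dystrophin gene, and 0 fell, at a median of 0.03 and beside the same 8.98% and 11.5%. After GC correction 0 of the 10 were called.

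Pan-neuronal markers summed to 4532 to 5665 CPM with Visudyne against 3935 to 4616 CPM with vehicle, and markers of GABAergic neurons to 403.5 to 488 CPM with Visudyne against 383.9 to 428.3 CPM with vehicle. Oligodendrocyte markers summed to 2075 to 2464 CPM with Visudyne against 2168 to 2900 CPM with vehicle, with 3 of 5 tested called lower and 0 higher. Astrocyte markers summed to 796.2 to 913.8 CPM with Visudyne against 754.5 to 872.8 CPM with vehicle, microglial markers to 93.95 to 103.8 CPM with Visudyne against 91.3 to 100.2 CPM with vehicle and endothelial markers to 89.9 to 101.9 CPM with Visudyne against 78.8 to 92.2 CPM with vehicle. Markers of the neighbouring cortex summed to 100.8 to 134.9 CPM with Visudyne against 95.6 to 121.5 CPM with vehicle and those of the thalamus to 26.8 to 39 CPM with Visudyne against 21.6 to 31.3 CPM with vehicle. Of the tested markers, 2 of 5 pyramidal and 1 of 5 microglial markers were called lower, 1 of 5 GABAergic markers was called lower and 1 higher, and 0 of 5 astrocyte and 0 of 4 cortex markers were called. In each of 5 further lists 1 marker was called higher, among 4 dentate, 5 pan-neuronal, 5 endothelial, 5 choroid plexus and 3 thalamus markers. All these counts, those of the oligodendrocyte markers included, stand beside 8.98% called higher and 11.5% called lower among all tested genes. No marker of any list was at 0 in every library. Their part in the members' values was not tested. Without the choroid plexus-high libraries Visudyne 3 and 5, a setting added after the data were seen, 6 members were called higher and 2 lower, where 7.81% of all tested genes were called higher and 10.6% lower: Dlg2, Nlgn1, Lrrtm2, Dlgap1, Lrrtm4 and Cnksr2 rose, and Shank3 and Kalrn fell.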

How the data were processed

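Total RNA from 10 hippocampus samples was sequenced; per the labels' protocols the kit keeps strand. The authors deposited estimated counts per Ensembl gene in a single table, made with FastQC and Salmon on mm10, per the submitters' processing notes. The sources used here name no version, annotation or strand setting. The values are whole numbers and were used as they stand.

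Symbols, positions and exon lengths came from GENCODE M21 on GRCm38 (27053 of 27343 identifiers matched), and GC content from its transcripts, weighted by length. Exons of 13 members overlap those of another gene, 11 of them on the opposite strand and 2 on the same strand (Dlg2 and Nlgn3), so part of their reads may be shared.

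Groups were compared in R 4.3.3 with edgeR 4.0.16 (filterByExpr, TMM, quasi-likelihood test, two-sided, Benjamini-Hochberg adjustment over 15938 genes, called under 0.05). The SE is the log2 fold change divided by the root of F. Other settings used limma 3.58.1, DESeq2 1.42.0 and sva 3.50.0. GC trends were loess fits (span 0.3) of log2 CPM (prior count 2), removed through offsets. Members and lists were chosen with earlier results of these data known, so no list test was made. Named were all members, with values in every library for called ones and for Dlg4, Shank3, Homer1, Nlgn1, Nlgn2 and Gphn (and for Dlgap3, chosen after its values were seen), and up to 4 called partners per list by p. Srcin1 and Nrxn2 were named in addition, after their values were seen. The vehicle samples' titles, not their treatment label, name the maze. Replicate numbers 1 to 5 and 6 to 10 are not shared between groups. The sources name no batch.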

Additional observations from a re-analysis of the deposited data

Results flagged for a closer look

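In 56 groups of 5 values (28 members, 2 groups), 2 had a library far from the others by Dixon's ratio of gap to range, and chance alone marks about 1 in 20 groups. Shank3 stood at 5.53 CPM in Visudyne 1, against 7.95 to 8.61 CPM in the other Visudyne libraries. Shank1 stood at 23.3 CPM in vehicle 9, against 12.4 to 15.5 CPM in the other vehicle libraries. These are the libraries with the lowest and the highest GC slope.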

How the results depend on the processing

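No paired analysis was possible because the groups share no replicate numbers. With RLE or upper-quartile factors, limma-voom, mitochondrial genes left out or a minimum of 1 CPM in 5 libraries, counts of called members and genes stayed within 1.5 times those reported. With total counts 0 members were higher and 12 lower, at a member median of -0.285 and an all-gene median of -0.19. Without a low-count filter 2075 genes were called. DESeq2 called 5 members higher and 7 lower, and 4480 of 15938 tested genes in all. After GC correction 712 genes and 1 lower member were called, at a member median of 0.0533. After GC and length correction 749 genes and 1 lower member were called, at 0.0286. Under the slope covariate 0 genes (1032 at an unadjusted p under 0.05) and 0 higher and 0 lower members were called, at 0.0447, and with 1 surrogate variable 1 gene and 0 higher and 0 lower members were called (4 members at an unadjusted p under 0.05). Without 1 library, with or without the GC trend, genes called ran from 2 to 5047, members higher from 0 to 6, lower from 0 to 8 and the member median from -0.11 to 0.0806. Of the settings added after the data were seen, leaving out Visudyne 3 and 5 gave 6 higher and 2 lower members, and leaving out Visudyne 1 and vehicle 9 gave 100 genes and 0 higher and 0 lower members. In each case the cause was not tested. Log2 fold changes of the other sign were Dlg1 -0.19, Dlgap1 -0.0216, Shank2 -0.13, Homer2 -0.0763, Nlgn3 -0.16, Lrrtm1 -0.0867, Lrrtm3 -0.17 and Lrrtm4 -0.0448 with total counts, Dlg1 -0.13, Dlgap2 0.16, Dlgap4 0.28, Shank1 0.24, Nlgn2 0.11, Lrrtm3 -0.0321, Lrrtm4 -0.0525, Sipa1l1 0.0326, Baiap2 0.32 and Iqsec2 0.0629 after GC correction, Dlg1 -0.15, Dlgap2 0.16, Dlgap4 0.27, Shank1 0.22, Nlgn2 0.11, Lrrtm3 -0.0249, Lrrtm4 -0.0562, Sipa1l1 0.00630, Baiap2 0.32 and Iqsec2 0.0569 after GC and length correction, Dlg1 -0.0924, Dlg4 0.0823, Dlgap1 -0.00800, Dlgap3 0.34, Dlgap4 0.25, Shank1 0.26, Shank3 0.0237, Homer2 -0.0285, Homer3 0.28, Nlgn2 0.23, Lrrtm3 -0.16, Lrrtm4 -0.14, Sipa1l1 0.0290, Cnksr2 -0.0295, Iqsec1 0.13 and Iqsec2 0.0742 with the covariate, Dlg1 -0.0628, Dlgap4 0.11, Shank1 0.0738, Nlgn2 0.00370, Lrrtm3 -0.10 and Lrrtm4 -0.0362 with the surrogate variable, Lrrtm3 -0.0589 without Visudyne 3 and 5, and Dlg1 -0.00510 and Dlgap4 0.0166 without Visudyne 1 and vehicle 9. Leaving out 1 library with or without the GC trend gave log2 ranges of Dlg1 -0.17 to 0.0562, Lrrtm3 -0.14 to 0.11, Homer1 -0.33 to 0.0353, Dlgap2 -0.24 to 0.24, Dlgap4 -0.23 to 0.31, Shank1 -0.41 to 0.28, Nlgn2 -0.46 to 0.15, Lrrtm4 -0.0851 to 0.24, Sipa1l1 -0.17 to 0.0673, Baiap2 -0.17 to 0.42, Iqsec2 -0.47 to 0.13, Shank3 -0.66 to 0.0256 and Homer3 -0.76 to 0.0358. Low counts limit Dlgap3 and Homer3 most.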
